A study of Mus musculus with 6 samples.

Results

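Cytochrome c oxidase, or complex IV, is the last enzyme of the respiratory chain, and several of its nuclear-encoded subunits exist as isoforms that differ between tissues. The 10 mouse genes described here form 5 isoform pairs of these subunits: Cox4i2 with Cox4i1, Cox6a2 with Cox6a1, Cox6b2 with Cox6b1, Cox7a1 with Cox7a2, and Cox8b with Cox8a. They were chosen by gene name from a list drawn up after Cox6a2 was seen to differ between the groups, and all 10 had a probe set, among 23185 named genes on the arrays. The values that chose them are the same JG-98 and control values given here, so the members' differences are a description and carry no test.

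Mouse marrow cells grown into macrophages in culture (bone marrow-derived macrophages) were the source of all samples. In 3 samples the cells had received JG-98 at 0.3 micromole for 16 hours, and 3 control samples were untreated. JG-98 is an inhibitor of Hsp70 chaperones, and the comparison asks how it alters gene expression. The labels give an amount of JG-98 without a volume, and name no vehicle for the controls, no mouse strain, age or sex, and no separate animals or cultures for the replicates. The values are log2 expression, 1 per gene and array, so a difference of 1 is a doubling. Because RNA came from bulk samples, fewer cells of a type and less RNA per cell cannot be told apart.

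The catalytic core of complex IV, which carries the haem and copper centres, is encoded by mitochondrial DNA, and the nuclear-encoded subunits surround it and adjust its assembly and activity. Cox4i1, Cox6a1, Cox6b1, Cox7a2 and Cox8a are the widely expressed forms. Cox6a2, Cox7a1 and Cox8b are the forms of heart and skeletal muscle, with Cox7a1 and Cox8b also used as markers of brown fat. Cox4i2 is a form best known from lung and induced by low oxygen in some cells, and Cox6b2 is a testis form.

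Sequence just before the transcription start was available from RefSeq for 7 of the 10 members, and 3 windows are shown because they set the widely expressed partner of Cox6a2 and another widely expressed member beside a muscle-type member. Cox6a2, Cox4i1 and Cox4i2 have no window here. Each window is the 250 bases before the start on build GRCm38.p6, written 5′ to 3′ on the strand of the gene. Cox6a1 is at chr5:115348959-115349208 on the minus strand, Cox6b1 at chr7:30626115-30626364 on the minus strand and Cox8b at chr7:140900447-140900696 on the minus strand. Capitals mark matches on either strand to 4 short motifs, of which the NRF1 core was searched as GCGCANGC, the ETS site as CCGGAAG, the E-box as CAGCTG and the TATA box as TATAAA.
Cox6a1: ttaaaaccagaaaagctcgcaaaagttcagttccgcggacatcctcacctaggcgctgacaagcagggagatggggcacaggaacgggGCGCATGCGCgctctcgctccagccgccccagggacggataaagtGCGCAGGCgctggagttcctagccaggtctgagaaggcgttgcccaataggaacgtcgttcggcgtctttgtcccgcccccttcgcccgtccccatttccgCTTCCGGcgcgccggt
Cox6b1: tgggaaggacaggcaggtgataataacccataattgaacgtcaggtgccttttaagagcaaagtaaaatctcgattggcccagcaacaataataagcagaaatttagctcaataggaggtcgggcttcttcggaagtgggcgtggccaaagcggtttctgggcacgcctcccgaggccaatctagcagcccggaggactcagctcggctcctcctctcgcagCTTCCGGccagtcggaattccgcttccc
Cox8b: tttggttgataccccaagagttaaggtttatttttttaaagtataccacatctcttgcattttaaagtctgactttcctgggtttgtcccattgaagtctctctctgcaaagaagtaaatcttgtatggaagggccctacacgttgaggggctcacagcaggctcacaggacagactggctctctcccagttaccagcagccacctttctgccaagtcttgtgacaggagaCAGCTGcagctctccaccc

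NRF1 and the ETS factor GABP are known regulators of nuclear respiratory genes. The Cox6a1 window held 3 matches to the NRF1 core, counted on both strands with overlap, and 1 ETS match. The Cox6b1 window held 1 ETS match. In the Cox8b window there was 1 E-box, a type of site bound by muscle regulators such as MyoD among other factors. Of all 32851 windows in the RefSeq table, 8.30% held the NRF1 core, 6.91% the ETS site, 13.0% the E-box and 12.4% the TATA box. The other 4 windows (Cox6b2, Cox7a1, Cox7a2 and Cox8a) held none of the 4 motifs. The 3 windows shown are thus the ones with a match, and their contrast does not stand for widely expressed and muscle-type members in general. The windows also differed in base composition. Cox6a1 had 62.8% G and C with 26 CpG dinucleotides, Cox8b had 47.2% with 1, and the median window had 52.4% with 6. Cox7a1, the other muscle-type form with a window, had 51.2% with 4 CpG dinucleotides. Such matches describe letters and do not show binding.

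Cox6a2 was the member that stood apart. This small subunit, VIa, is known to bear on the regulation of the enzyme by ATP and ADP, and Cox6a2 is its heart and muscle form. Its log2 level was 6.32, 6.28 and 6.08 on JG-98 replicates 1 to 3, against 4.79, 4.78 and 4.92 on control replicates 1 to 3. Every JG-98 array lay above every control array, and the lowest JG-98 value was 1.16 above the highest control value. The mean was 6.22 ± 0.13 with JG-98 and 4.83 ± 0.080 in controls (SD, n = 3 per group), a log2 difference of 1.39, or 2.63-fold. It ranked 3 among all 25206 probe sets ordered by their difference, and 15 probe sets differed by at least 1 in either direction.

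Its partner Cox6a1, the form found in most tissues, had log2 levels of 11.51, 11.63 and 11.63 with JG-98, against 11.60, 11.58 and 11.61 in controls. These ranges overlapped, and the means differed by -0.0071 on the log2 scale (11.59 ± 0.070 with JG-98 and 11.59 ± 0.013 in controls, SD, n = 3 per group). In each sample the level of Cox6a2 can be set against that of Cox6a1 as a log2 ratio, and its change can be followed although levels of different probe sets cannot be compared. Relative to the control mean, this ratio was 1.57, 1.41 and 1.22 with JG-98, against -0.04, -0.04 and 0.08 in controls. The change of Cox6a2 exceeded that of Cox6a1 by 1.40 on the log2 scale, or 2.64-fold.

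**Figure D1:**
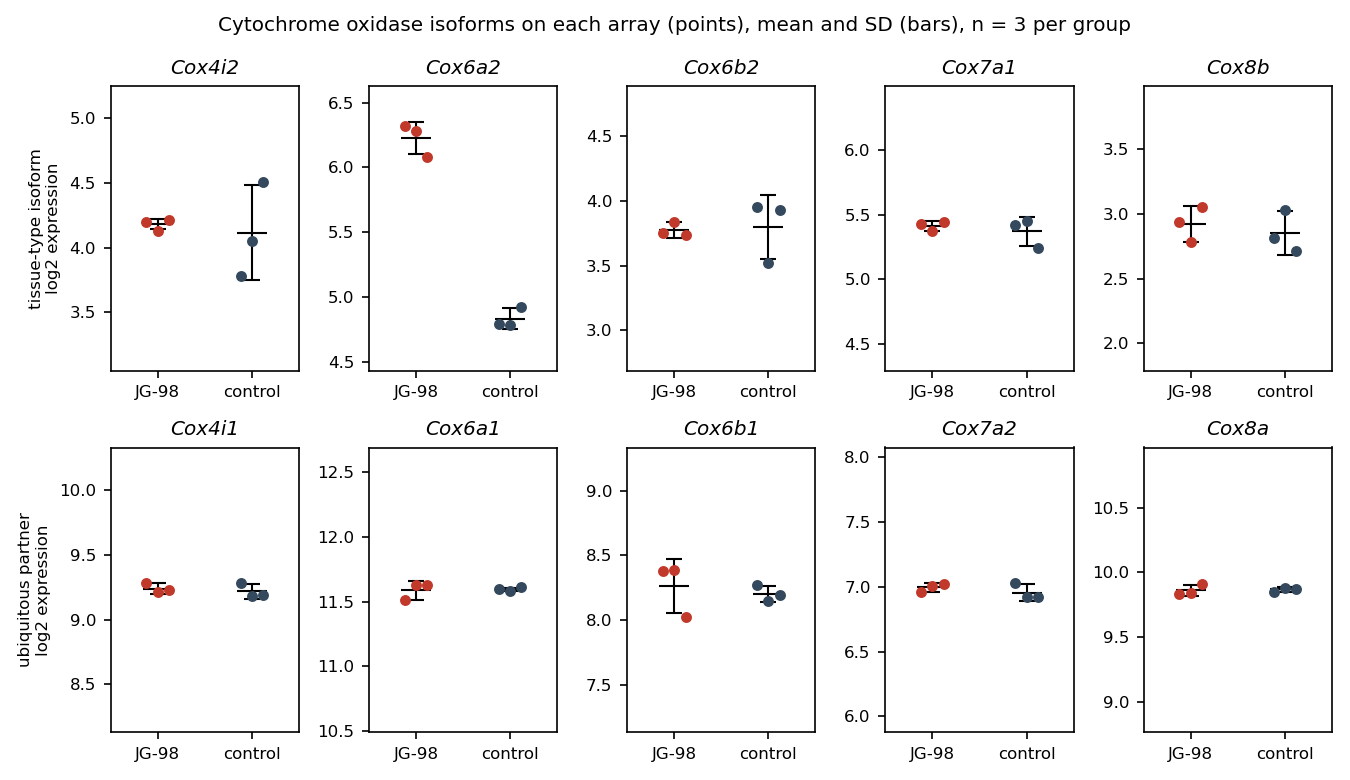
Log2 expression (y axis) of each isoform on every array (points) with the mean and SD (bars), JG-98 left and control right, n = 3 per group. Tissue-type forms are above and their widely expressed partners below, and all panels span the same height in log2 units. Cox6a2 alone has all JG-98 points (6.08 to 6.32) above all control points (4.78 to 4.92).

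The other muscle-type forms did not separate the groups. Cox7a1, the muscle form of subunit VIIa, had log2 levels of 5.43, 5.37 and 5.44 with JG-98, against 5.42, 5.45 and 5.24 in controls. Cox8b, the muscle form of subunit VIII, had 2.94, 2.78 and 3.05 with JG-98, against 2.81, 3.03 and 2.71 in controls. The groups overlapped for both, with log2 differences of 0.044 and 0.073. For their partners, Cox7a2 had 6.96, 7.01 and 7.02 with JG-98, against 7.03, 6.92 and 6.92 in controls. Cox8a had 9.83, 9.84 and 9.91 with JG-98, against 9.85, 9.88 and 9.87 in controls. Neither partner separated the groups, at differences of 0.040 and -0.0076. The isoform's change minus the partner's was 0.0036 in the Cox7a pair and 0.080 in the Cox8 pair, both within the array spread of the ratio (control SD 0.10 and 0.16). With 1 array left out it ran from -0.042 to 0.059 in the Cox7a pair and from 0.0066 to 0.16 in the Cox8 pair.

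Cox4i2, the oxygen-responsive form of subunit IV, had log2 levels of 4.20, 4.13 and 4.21 with JG-98, against 3.78, 4.05 and 4.51 in controls. All JG-98 values lay inside the control range. Its control SD of 0.37 was the widest of any member in either group and wider than that of 97.3% of probe sets, while its JG-98 SD was 0.041. The widely expressed Cox4i1 had 9.28, 9.21 and 9.23 with JG-98, against 9.28, 9.18 and 9.19 in controls. The differences were 0.066 for Cox4i2 and 0.021 for Cox4i1, so the ratio within this pair changed by 0.045, against a control SD of 0.41.

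Cox6b2, the testis form of subunit VIb, had log2 levels of 3.75, 3.84 and 3.74 with JG-98, against 3.95, 3.52 and 3.93 in controls. Cox6b1, its widely expressed partner, had 8.38, 8.39 and 8.02 with JG-98, against 8.27, 8.15 and 8.19 in controls. Both overlapped between the groups, and the value of 8.02 on JG-98 replicate 3 lay below all other arrays. The differences were -0.024 for Cox6b2 and 0.060 for Cox6b1, and the ratio changed by -0.084 (control SD 0.20). Without JG-98 replicate 3 the difference of Cox6b1 was 0.18.

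Of the 10 members, 9 overlapped between the groups, with log2 differences from -0.024 to 0.073. Over all probe sets the groups did not overlap in 7.12% with higher and 8.44% with lower JG-98 values, and since the rule used this contrast nothing is read from the members' count. The median over all 10 was 0.042, and that of all probe sets was 0.00080. In limma, at an adjusted p under 0.05 over all probe sets, Cox6a2 was the 1 member called, where 0.0397% of probe sets were called (10 of 25206). Cox6a2 was placed in the list through that contrast, so nothing is read from this count. Leaving out JG-98 replicate 1 or 2, or any single control array, ended the Cox6a2 call, with differences of 1.35 to 1.44 in those fits. Each of those fits called 0 probe sets, so the loss was not particular to Cox6a2. JG-98 replicate 3 stood somewhat apart from the other arrays over all probe sets (Pearson correlations of 0.992 to 0.9935). Without that array the Cox6a2 difference was 1.47, and Cox6a2 was among the 5 probe sets called.

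**Figure D2:**
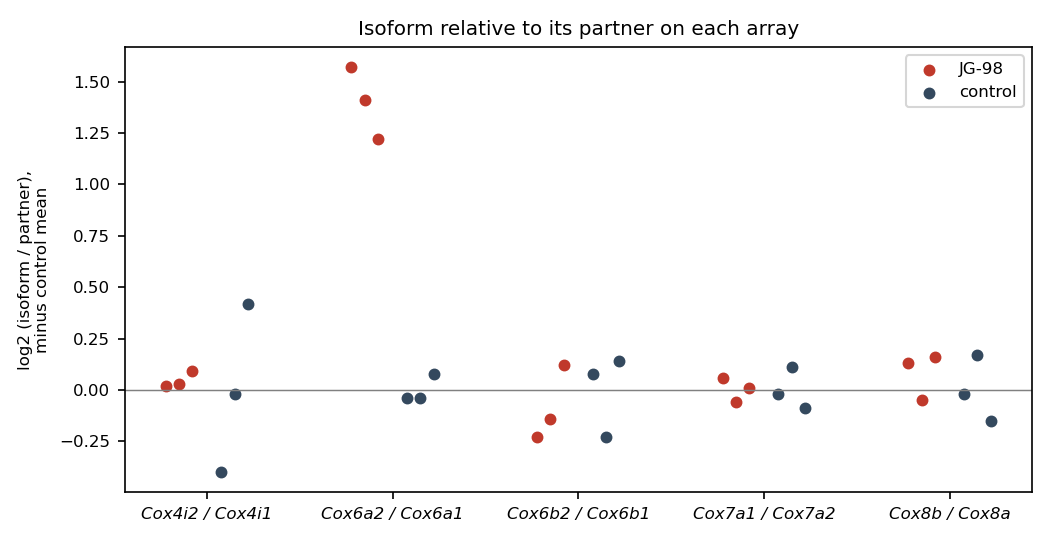
Log2 ratio of the tissue-type isoform to its partner on each array (y axis), minus the mean of the 3 control arrays, for the 5 pairs (x axis), with JG-98 left of control. The Cox6a2 to Cox6a1 ratio lies between 1.22 and 1.57 with JG-98 and near 0 in controls, and the points of the other 4 pairs overlap.

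The arrays carry no detection call here, so brightness was set against 1350 probe sets of odorant and vomeronasal receptors, a large family whose members are mostly expressed in sensory neurons. The 95th percentile of these lay between 3.75 and 4.03 on the 6 arrays and served as a rough dim level. All 5 widely expressed forms were above it on 6 of 6 arrays, as were Cox6a2, Cox7a1 and Cox4i2. Cox4i2 passed it narrowly on control replicate 1 (3.78 against 3.76) and by more on control replicate 3 (4.51 against 3.85). Cox6b2 was above it on 3 arrays and Cox8b on 0, so the values of these forms are not distinguished from the dim level, and RMA compresses differences there. Passing this level does not show expression. Prm2, a sperm chromatin protein, and Tnnc1, a troponin of heart and slow muscle, are known from sperm and muscle and had control means of 5.47 and 5.55, above the 4.83 of Cox6a2 in controls. Nor does a dim value show absence, because Cox5b and Cox7b, widely expressed subunits of the enzyme, were dim on all arrays with control means of 3.50 and 3.25.

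**Figure D3:**
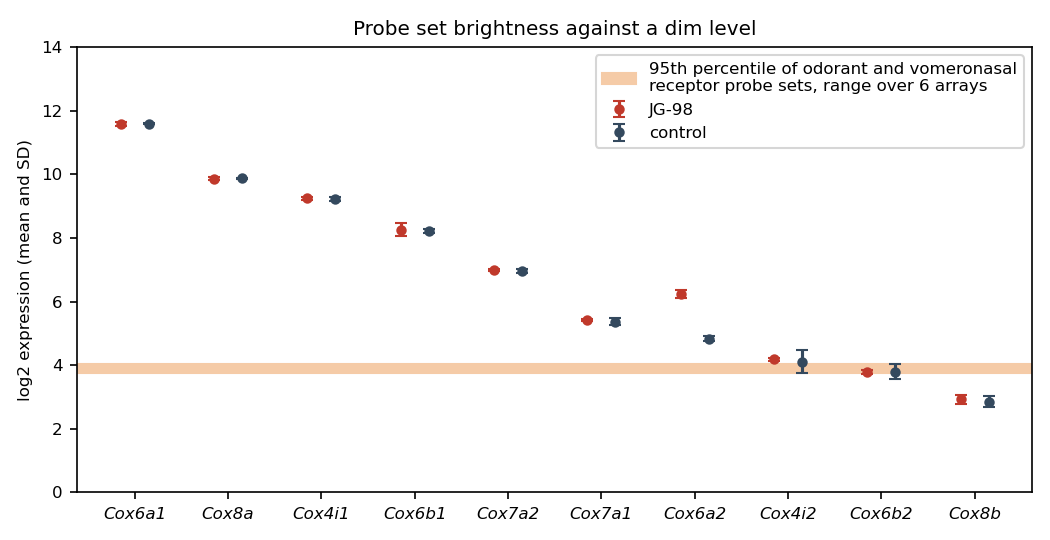
Mean log2 expression and SD (y axis, n = 3 per group) of the 10 isoforms, ordered by their control mean, JG-98 left of control. The band is the range over the 6 arrays of the 95th percentile of odorant and vomeronasal receptor probe sets (3.75 to 4.03), and the order shows probe set brightness, not transcript abundance.

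Other genes of the enzyme gave no call. Of 64 listed genes for other subunits, assembly factors and regulators of the nuclear COX genes, 59 were measured and 0 were called in limma (smallest adjusted p = 0.42). Over all probe sets 0.0397% were called, and at that share a count of 0 says little about these genes. At an unadjusted p under 0.05 there were 4 of the 59, where 8.32% of all probe sets reached it. The groups did not overlap for 6 genes with higher and 5 with lower JG-98 values, where 7.12% and 8.44% of all probe sets did so. Their differences ran from -0.23 to 0.32, all smaller than that of Cox6a2, with a median of -0.0099.

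Among 9 further subunit genes the median difference was -0.037, but 5 of them, Ndufa4l2 included, were dim on all 6 arrays. Ndufa4l2, a hypoxia-inducible relative of the subunit gene Ndufa4, differed by 0.21 ± 0.10 and Cox7a2l, a supercomplex factor related to Cox7a2, by -0.23 ± 0.13 (SE of the limma fit, n = 3 per group). Neither passed the test (limma adjusted p = 0.66 and 0.70). Cox5a and Cox6c, nuclear-encoded subunits around the core, differed by 0.12 and -0.037. The transcripts of the mitochondrially encoded subunits and Cox7c were not analysed here.

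The 28 assembly factors had a median difference of -0.024. Cox18, which inserts part of a core subunit into the inner membrane, had log2 levels of 6.75, 6.73 and 6.66 with JG-98, against 6.57, 6.34 and 6.55 in controls (difference 0.22 ± 0.084, limma adjusted p = 0.54). Pet100, an assembly chaperone, had 5.46 on all 3 JG-98 arrays, against 5.71, 5.63 and 5.55 in controls (difference -0.17 ± 0.069, limma adjusted p = 0.59). Both groups separated for these genes, yet neither passed over all genes tested. Cmc2, an assembly factor of the intermembrane space, differed by -0.19 ± 0.081 (limma adjusted p = 0.62).

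The 22 regulators had a median difference of 0.044. Pprc1, a coactivator of the PGC-1 family, had log2 levels of 6.62, 6.48 and 6.43 with JG-98, against 6.17, 6.09 and 6.30 in controls, with a difference of 0.32 ± 0.088 (limma adjusted p = 0.42). Mef2c, a transcription factor of muscle and also of myeloid cells, had 8.22, 8.19 and 8.33 with JG-98, against 8.40, 8.43 and 8.46 in controls, with a difference of -0.18 ± 0.068 (limma adjusted p = 0.54). Gabpa, the DNA-binding part of GABP, differed by -0.22 ± 0.093 (limma adjusted p = 0.61). These were the regulators with the smallest p, and none passed.

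**Figure D4:**
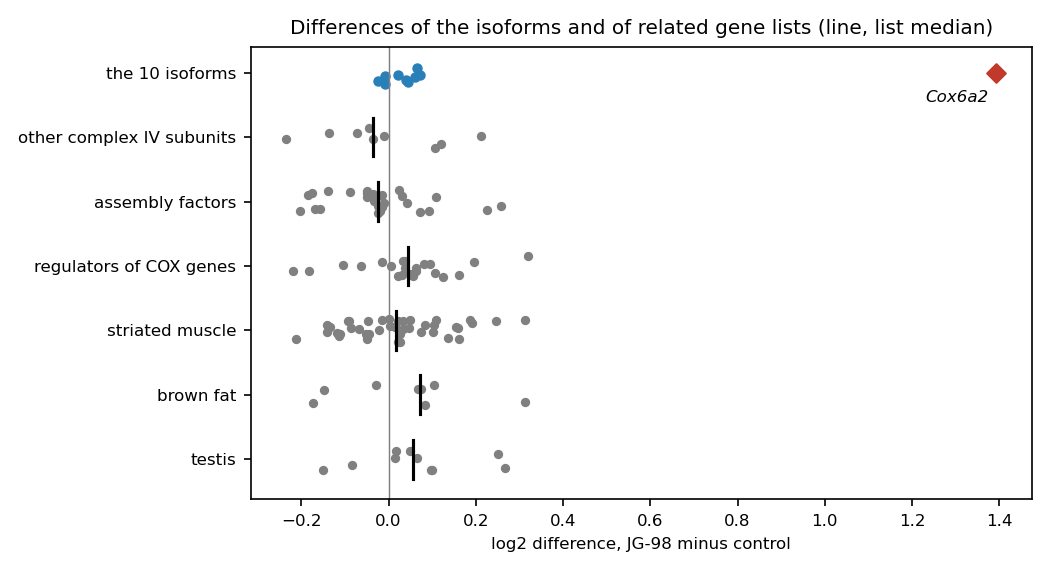
Log2 difference, JG-98 minus control (x axis), of the 10 isoforms and of genes in 6 related lists, with 1 point per gene and a line at each list's median. Cox6a2 lies at 1.39, and every other plotted gene lies between -0.23 and 0.32.

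Genes of the tissues in which the isoforms are typical were examined in the same fit, where 0.0397% of all probe sets were called and 8.32% had an unadjusted p under 0.05. Of 42 striated muscle genes, 0 were called and 1 reached an unadjusted p under 0.05, with a median difference of 0.018 and a range from -0.21 to 0.31. The 2 with the smallest p were the myosin-binding protein gene Mybpc2 at 0.31 ± 0.12 and the actinin gene Actn2 at 0.16 ± 0.074 (limma adjusted p = 0.57 and 0.64). Both were dim on all 6 arrays. The median level of the 42 genes per array was 3.62 to 3.77 with JG-98 and 3.75 to 3.77 in controls. Of the 42 genes 19 were dim on all 6 arrays, among them Des, Ttn, Myh1 and Actc1. Another 15 were above the dim level on all 6, among them Acta1, Eno3, Tnni2 and Tcap. Of 8 brown fat genes, 0 were called and 1 had an unadjusted p under 0.05. Of these genes 5 were dim on all 6 arrays, Ucp1 among them, and 1, Plin5, was above the dim level on all 6. Dio2, a deiodinase of brown fat, differed by 0.31 ± 0.081 and Plin5, a lipid droplet protein, by -0.17 ± 0.082 (limma adjusted p = 0.40 and 0.65). Of 10 testis genes, 0 were called and 0 had an unadjusted p under 0.05, with 8 dim on all arrays. The 2 with the smallest p there were Prm2 at 0.25 ± 0.11 and Cyct, the testis cytochrome c, at 0.27 ± 0.17 (limma adjusted p = 0.64 and 0.74). Cyct was dim on all 6 arrays.

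Among macrophage markers, all 8 measured genes of 10 listed were above the dim level on 6 of 6 arrays, with a median level of 10.2 to 10.3 with JG-98 and 10.3 to 10.4 in controls. Their median difference was -0.078 and 0 were called, with 2 at an unadjusted p under 0.05, the complement gene C1qa at -0.24 ± 0.066 and the efferocytosis receptor gene Mertk at -0.22 ± 0.067 (limma adjusted p = 0.42 and 0.48). With an intensity trend, or with dim probe sets left out at a mean under 6, 1 of the 8 was called lower. Of 8 neutrophil markers, 6 were dim on all arrays and 0 above the dim level on all 6. The median level of this list was 2.94 to 3.14 with JG-98 and 2.80 to 2.90 in controls. Of 8 dendritic cell markers, including those of plasmacytoid cells, 6 were dim on all arrays, Siglech, Flt3 and Xcr1 among them. The other 2, Tcf4 and Ly6d, were above the dim level on all 6, with control means of 8.57 and 4.61. For the neutrophil and dendritic lists 0 were called and 0 had an unadjusted p under 0.05. Over all probe sets these shares were 0.0397% and 8.32%. The neutrophil genes with the smallest p were Ltf at 0.17 ± 0.14 and Elane at 0.082 ± 0.082, and the dendritic ones were Tcf4 at -0.16 ± 0.082 and Siglech at 0.29 ± 0.16 (SE of the limma fit, limma adjusted p from 0.68 to 0.85). The part of any such cells in the Cox6a2 difference was not tested.

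The 5 genes whose deviations from their own control mean over the 6 arrays were nearest to those of Cox6a2 were Trib3, Slc7a11, Tarm1, Slc6a9 and Aqp9, with root mean square distances of 0.14, 0.19, 0.21, 0.22 and 0.27 on the log2 scale. Trib3, a stress-induced pseudokinase, had log2 levels of 6.93, 6.95 and 6.75 with JG-98, against 5.25, 5.32 and 5.33 in controls. Slc7a11, which imports cystine, had 5.48, 5.59 and 4.86 with JG-98, against 3.66, 3.85 and 3.84 in controls, all below the dim level. In both, as in Cox6a2, the lowest JG-98 value was on replicate 3. Tarm1, a receptor of myeloid cells, had 7.44, 7.33 and 7.59 with JG-98, against 6.23, 6.26 and 6.32 in controls, and was highest on that array instead. Slc6a9, a glycine transporter, had 5.16, 5.33 and 5.22 with JG-98, against 4.20, 4.10 and 3.90 in controls. Aqp9, a channel for water and glycerol, had 5.86, 5.70 and 5.29 with JG-98, against 4.71, 4.41 and 4.54 in controls, and was also lowest on JG-98 replicate 3. In limma, Slc7a11 and Aqp9 were not called (adjusted p = 0.13 and 0.19), while Trib3, Tarm1 and Slc6a9 were. The measure takes genes of like size of change, and it was made from the same arrays that chose Cox6a2, so nothing is read from these calls.

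On chromosome 7, Cox6a2 lies next to a group of integrin genes that macrophages use, and its 10 nearest measured genes, 5 on each side, were read from the same fit. This set was added after the values of Cox6a2 were seen. None of the 10 was called in limma (smallest adjusted p = 0.48), and 1 had an unadjusted p under 0.05, where 0.0397% and 8.32% of all probe sets did so. Itgad, an integrin alpha chain whose annotated end overlaps Cox6a2 in the RefSeq table of GRCm38.p6, differed by 0.029 ± 0.17 at a dim control mean of 2.52. Itgax, which encodes CD11c, differed by 0.20 ± 0.14 and Itgam, which encodes CD11b, by -0.048 ± 0.064 (SE of the limma fit). On the other side, 9130023H24Rik differed by -0.23 ± 0.070 and Armc5 by 0.0026 ± 0.087. The positions of the Cox6a2 probes were not analysed here.

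**Figure D5:**
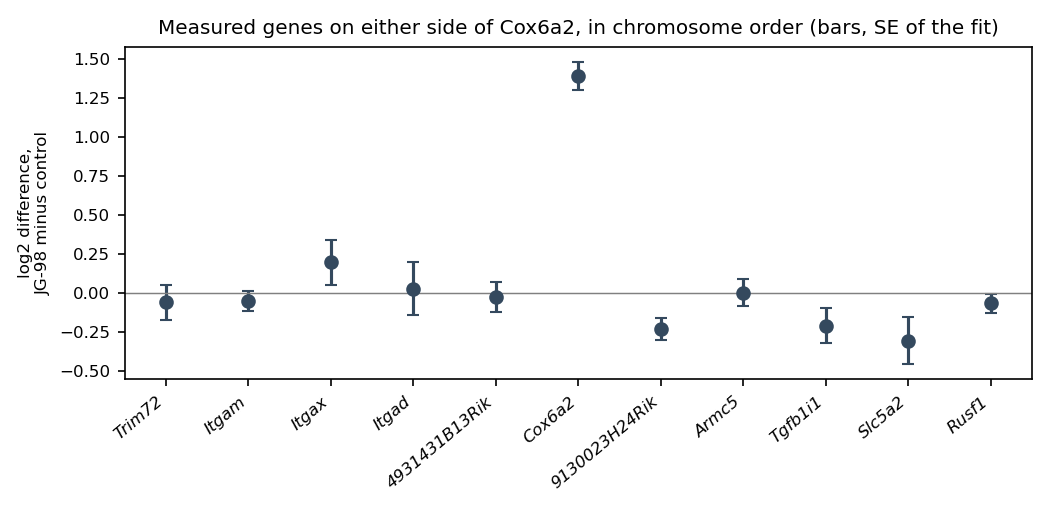
Log2 difference, JG-98 minus control (y axis), of Cox6a2 and the 5 nearest measured genes on each side in chromosome order (x axis), with the SE of the limma fit as bars, n = 3 per group. Cox6a2 lies at 1.39 and its neighbours between -0.30 and 0.20.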

How the data were processed

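For each of 6 single-colour arrays the authors deposited 1 log2 value per probe set. Per the submitters' processing notes, RMA, affy and R 2.15.1 were used, in roles that are not stated. As generally defined, RMA removes background, equalises arrays by quantiles and summarises probes as log2 values, so a change common to all genes would be lost. The genome build and probe positions are not given in the sources used here. Precision is limited by having 6 arrays.

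Of 25206 probe sets, 23185 had 1 gene symbol from the platform annotation, 0 had several and 2021 had none. All 23185 matched a RefSeq table (GRCm38.p6) by Entrez number, which gave current names. JG-98 was compared with control by limma 3.58.1 in R 4.3.3 (lmFit, eBayes, two-sided, Benjamini-Hochberg over all probe sets, adjusted p under 0.05), with 3 arrays per group. A difference is JG-98 minus control. Since no label ties replicates to separate animals or cultures, the p-values reflect spread between these samples only, and that spread may be technical.

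The members and gene lists were chosen with earlier results of these data known. Genes were named by rule: all members, the 6 genes of smallest p among complex IV subunit, assembly and regulator genes, the 2 of smallest p in each cell type list, and the 5 nearest to Cox6a2. Others named were chosen after their values were seen. Fits were tested on simulated data. Alternatives were an intensity trend, a robust prior, array weights, median centring, quantile normalization, leaving out dim probe sets at 2 levels, a replicate block and leaving out each array.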

Additional observations from a re-analysis of the deposited data

How the results depend on the processing

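The Cox6a2 difference lay between 1.35 and 1.47 in the 13 alternatives that tested it, and the Cox6a2 to Cox6a1 ratio change between 1.31 and 1.49. It was not tested when probe sets with a mean under 6 were left out, because its own mean is below 6. All 196 values of members and pairs under the alternatives moved by less than 1 SD, the larger of the JG-98 and control SDs. For most alternatives this was fixed in advance, so the count says little. Leaving out dim probe sets, the intensity trend, the robust prior and the replicate block keep every tested difference the same. Median centring keeps every ratio the same, and leaving out 1 array cannot move a mean of so few arrays by 1 SD. Only quantile normalization, array weights and, for members, median centring could have exceeded 1 SD, and none did. The differences of Cox4i1, Cox4i2, Cox6a1, Cox6b1, Cox6b2, Cox7a1 and Cox8a changed sign when single arrays were left out, as did the ratio changes of the Cox4i and Cox7a pairs, so no direction is given for them. No other complex IV gene was called in any of the 14 alternatives (limma).

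The number of probe sets called was 10, and 59 with probe sets under a mean of 4 left out, 385 with those under 6 left out, 254 with an intensity trend and 25 with array weights. It was 0 to 5 with each array left out in turn. With the replicate number as a block it was 0, and the Cox6a2 call was lost (limma adjusted p = 0.27 at the same difference). Deviations of same-numbered arrays correlated at 0.095, -0.13 and 0.10, which gives no pairing, and no label says what a number marks. The filters test fewer probe sets and also refit the model to those kept. The cause of these shifts in the number called, with the filters or otherwise, was not tested. The signal of Cox8b and Cox6b2 at the dim level, and of Cox4i2 close to it on control replicate 1, limits what their values show.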
